A study of Mus musculus with 8 samples.

Results

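The genes described here are Trp53, which encodes the transcription factor p53, its inhibitors Mdm2 and Mdm4, and 7 genes known as p53 targets or partners in growth arrest and stress: Zmat3, Trp53inp1, Sesn1, Sesn2, Plk2, Perp and Phlda3. These 10 genes were taken by symbol from a deposited table of 45777 genes, and all 10 had enough counts to be tested. They were measured by RNA sequencing of mouse colonic organoids, which are epithelial cultures grown in Matrigel from isolated crypts. KO organoids (Reg3aΔIEC, 4 libraries, replicates 5 to 8) came from mice in which loxP sites around exons 2 to 4 of Reg3a were combined with Villin-Cre, a recombinase driven in intestinal epithelium. WT organoids (Reg3afl/fl, 4 libraries, replicates 13 to 16) carried the same floxed gene. Mice were male and 9 weeks old, the strain named in the labels is C57BL/6J, the organoids had at most 15 passages, and all were collected 3 days after passage with no added treatment. The labels disagree on replication, naming 1 mouse per genotype with 4 wells but also 3 mice in triplicate. All p-values rest on the variation among these libraries, possibly technical only, and genotype cannot be told apart from mouse or organoid line. As the groups are described, loss of Reg3a cannot be told apart from the presence of Villin-Cre either.

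p53 is held at a low level in unstressed cells because MDM2, a ubiquitin ligase, marks it for degradation, while MDM4 binds p53 and blocks its activation of genes. DNA damage and other stresses release p53 from both, and p53 then raises its target genes, Mdm2 among them, which closes a feedback loop. Much of this control acts on the p53 protein, and an RNA measurement does not report protein level or activity. In bulk organoids a smaller number of cells of a type and less RNA per cell cannot be told apart.

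The p53 consensus half-site, a motif of 10 bases that is its own reverse complement and so is read on both strands at once, was searched in the RefSeq promoter windows of build GRCm38.p6, which span 250 bases before to 50 bases after a start. Of the 10 genes 7 matched, with 9 windows in all, and Perp, Trp53inp1 and Zmat3 did not. A half-site was found in 3 of the 9 windows, at Trp53, Mdm2 and the second of the starts of Sesn1, and in 8.36% of all 32851 windows of that length. A pair of half-sites with at most 13 bases between them was in none of the 9 windows and in 0.0731% of all windows. A match describes letters only, and a window without one says nothing about sites elsewhere in the gene. The 3 stretches are shown because they are the only matches, at Trp53, at its inhibitor Mdm2 and at a target that differed between genotypes. Whether p53 acts through them was not tested. They are written 5′ to 3′ on the strand of the gene, with the half-site in capitals:
Trp53: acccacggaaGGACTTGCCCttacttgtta
Mdm2: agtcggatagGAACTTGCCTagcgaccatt
Sesn1: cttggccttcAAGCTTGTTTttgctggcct
The first base of the half-site lay at position -75 from the Trp53 start (chr11:69580274-69580303, plus strand), at -186 from the Mdm2 start (chr10:117710925-117710954, minus strand) and at -173 from the second Sesn1 start (chr10:41887256-41887285, plus strand).

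Library totals were 42370611 to 48533942 counts in KO and 37182098 to 49256171 counts in WT. Reg3a, on chromosome 6, had 0 counts in all 8 libraries, so the targeted gene cannot check the labels. Counting error alone allows up to 0.0609 to 0.0807 CPM (counts scaled to library size) for it, or 0.122 to 0.161 CPM if both mates of a read pair were counted. None of the 10 genes lies on chromosome 6. All 8 markers of colonic epithelium were present, at a summed 10489 to 11106 CPM in KO and 10086 to 10841 CPM in WT. Of 16 markers of stromal, endothelial, immune and glial cells, Col1a2, Dcn, Cd3e and S100b had 0 counts everywhere and Cd68 made up most of the sum, at a mean of 31.0 CPM in the KO libraries against 38.4 CPM in the WT libraries. Cd68 was called lower in KO (edgeR adjusted p = 0.0399, by the test described below), though its libraries overlapped between genotypes. The other 15 markers summed to 11.6 CPM in KO replicate 6, of which the macrophage gene Lyz2 gave 9.90 CPM, to 0.568 to 0.753 CPM in the other KO libraries and to 0.851 to 0.945 CPM in WT. The mitochondrial genome gave 1.41% to 1.74% of KO counts, against 0.997% to 1.23% of WT counts, with no overlap, and the part of that shift in the results below was not tested.

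Of the 10 genes, Zmat3, Sesn1 and Perp rose in KO, Plk2 fell, and Trp53, Mdm2, Mdm4, Trp53inp1, Sesn2 and Phlda3 did not pass the test (quasi-likelihood test of edgeR, with p adjusted by Benjamini-Hochberg over 14945 genes and a threshold of 0.05). The changes were small, between 10.2% and 17.3% upward and 16.3% downward. Across all genes tested, 7.63% were called higher and 8.26% lower in KO. The 10 genes, like the gene lists below, were chosen with earlier results of these data known. Their shares beside those of all genes therefore describe the lists and test nothing. Every KO library lay above every WT library for 3 of the 10 genes, against 9.91% of all genes, and below for 1, against 10.3% of all genes. The median log2 fold change of the 10 genes was 0.11, beside -0.0012 for all genes tested. Without KO replicate 6, the library with Lyz2, the same 3 genes were called higher and the same 1 lower, and without KO replicate 5 Perp alone was called higher. Over all genes, the 1140 called higher became 757 without KO replicate 5.

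**Figure D1:**
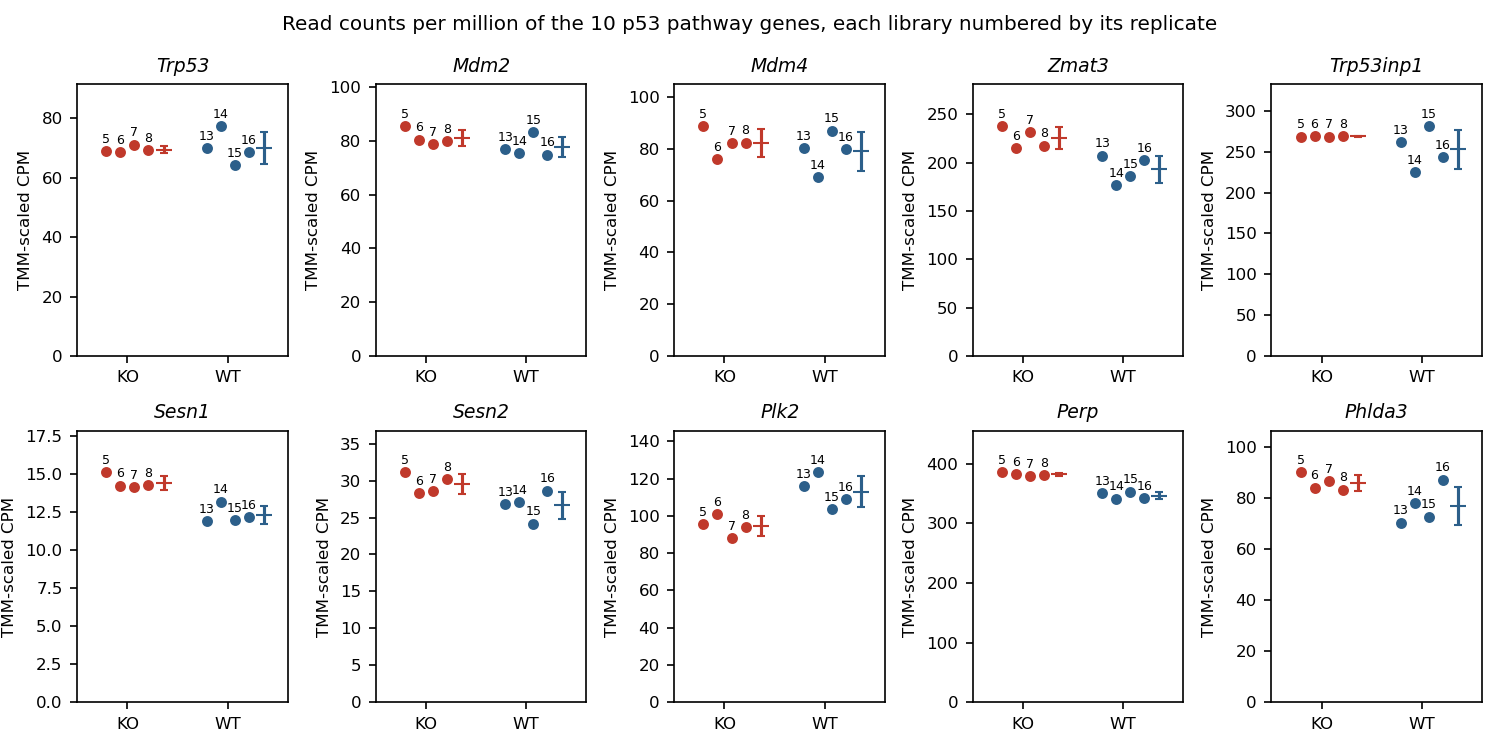
TMM-scaled CPM of each of the 10 genes in the 4 KO (red, left) and 4 WT (blue, right) libraries, numbered by replicate, with the mean and SD at the right of each group and an axis from 0. The KO libraries lie above all WT libraries for Zmat3, Sesn1 and Perp and below them for Plk2, and the groups overlap for the other genes.

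Trp53 (NCBI Gene ID 22059, chromosome 11, 69580348 to 69591873, GRCm38.p6) stood at 68.9, 68.5, 71.1 and 69.3 CPM in KO replicates 5 to 8 and at 70.0, 77.5, 64.3 and 68.6 CPM in WT replicates 13 to 16. The KO libraries sat within the range of the WT libraries, with WT replicate 14 highest and WT replicate 15 lowest. The log2 fold change was -0.013 with a 95% confidence interval of -0.13 to 0.10 (edgeR adjusted p = 0.913), which in percent runs from -8.60 to 7.45. The processed pseudogene Trp53-ps had 0 counts in all libraries.

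Mdm2 (NCBI Gene ID 17246, chromosome 10, 117688875 to 117710758), both the inhibitor and a target of p53, had 85.5, 80.4, 78.8 and 79.8 CPM in KO, against 77.0, 75.4, 83.1 and 74.8 CPM in WT. The groups overlapped because WT replicate 15 exceeded 3 of the KO libraries. Its log2 fold change was 0.064 (95% confidence interval -0.038 to 0.17, edgeR adjusted p = 0.420). Mdm4 (NCBI Gene ID 17248, chromosome 1, 132986105 to 133030587) had 88.9, 75.9, 82.1 and 82.5 CPM in KO, against 80.4, 69.0, 87.1 and 79.9 CPM in WT. It spread more widely in both genotypes than Mdm2 did, and its log2 fold change was 0.058 (-0.087 to 0.20, edgeR adjusted p = 0.638).

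Within each library, where scaling plays no part, the counts of Mdm2 were 1.17 times those of Trp53 in KO and 1.11 times in WT (geometric means). Counts are not scaled for length, so such a ratio compares genotypes and not the levels of both genes. The log2 ratio was 0.22 ± 0.068 in KO and 0.15 ± 0.17 in WT (SD, n = 4 each, two-sided exact permutation p = 0.400, adjusted p = 0.800 over 4 ratios). With 4 libraries against 4 the smallest exact p is 0.0286, and a single ratio of the 4 could not go below an adjusted p of 0.114, so these tests cannot pass 0.05 for 1 ratio alone. The widest single values were both in WT, at 0.37 in replicate 15 and -0.038 in replicate 14. The difference of 0.075 between genotypes was 0.15 without WT replicate 15, 0.013 without WT replicate 14 and 0.029 with TPM in place of counts. Mdm2 and Mdm4 kept nearly equal counts, with a log2 ratio of -0.020 ± 0.069 in KO and -0.024 ± 0.10 in WT (exact permutation p = 0.829, adjusted p = 0.829). The sign of that difference turned with TPM in place of counts and without single libraries.

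Zmat3 (NCBI Gene ID 22401, chromosome 3, 32334792 to 32365665), a zinc finger RNA-binding protein and p53 target, stood at 238, 215, 232 and 218 CPM in KO, against 207, 177, 186 and 202 CPM in WT. The lowest KO library, replicate 6, was above the highest WT library, replicate 13, by a narrow margin. It rose by 0.22 ± 0.055 on the log2 scale (SE, edgeR adjusted p = 0.0134), or 16.8% with an interval of 7.63% to 26.7%. The call ended without KO replicate 5, at an edgeR adjusted p = 0.0523, where the 15 alternative fits gave 9.5e-04 to 0.0523.

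The sestrins are stress-induced proteins that restrain the growth kinase complex mTORC1. Sesn1 (NCBI Gene ID 140742, chromosome 10, 41810574 to 41908436) had 15.1, 14.3, 14.2 and 14.3 CPM in KO, against 11.9, 13.2, 12.0 and 12.2 CPM in WT. The groups did not overlap, and each had 1 library above the other 3, KO replicate 5 and WT replicate 14. Sesn1 rose by 0.23 ± 0.063 on the log2 scale (SE, edgeR adjusted p = 0.0244), or 17.3%. Leaving out KO replicate 5, KO replicate 8 or WT replicate 13 ended that call, with edgeR adjusted p = 0.0786, 0.0575 and 0.0713, in a range of 0.0152 to 0.0786 over the alternatives.

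Sesn2 (NCBI Gene ID 230784, chromosome 4, 132492804 to 132510456) had 31.1, 28.3, 28.5 and 30.2 CPM in KO, against 26.8, 27.1, 24.2 and 28.6 CPM in WT. WT replicate 16 exceeded KO replicates 6 and 7. Its log2 fold change was 0.15 with an interval of 0.020 to 0.28, and it did not pass after adjustment (edgeR adjusted p = 0.116). The log2 ratio of Sesn2 to Sesn1 counts within a library was 1.03 ± 0.040 in KO and 1.11 ± 0.11 in WT (SD, n = 4 each, exact permutation p = 0.257, adjusted p = 0.800). Sesn3, the remaining sestrin gene and no part of the 10, fell in KO to 12.9 ± 0.954 CPM, against 15.8 ± 0.848 CPM in WT (SD, n = 4, edgeR adjusted p = 0.0117). It was named after its values were seen.

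Perp (NCBI Gene ID 64058, chromosome 10, 18845071 to 18857073), a membrane protein of desmosomes that p53 and p63 are known to activate, had the highest level of the 10 per length. It stood at 385, 383, 379 and 381 CPM in KO, against 350.4, 341, 353 and 342 CPM in WT. The gap between the lowest KO and the highest WT library was wider than the range within either genotype. The KO coefficient of variation, 0.690%, was below the counting error of 0.753%, so the KO range may understate the error of a library. Perp rose by 0.14 ± 0.034 on the log2 scale (SE, edgeR adjusted p = 0.0124), or 10.2%, the smallest of the 4 called changes and the one with the smallest error. Trp63, the p53 relative that drives Perp in stratified epithelium, had at most 6 counts in any library and was not tested.

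Phlda3 (NCBI Gene ID 27280, chromosome 1, 135766085 to 135769134), a p53 target that represses the kinase AKT, had 90.1, 84.0, 86.7 and 83.3 CPM in KO, against 70.3, 77.9, 72.7 and 87.2 CPM in WT. A single WT library, replicate 16, overlapped with KO. Its log2 fold change was 0.16 with an interval of 0.027 to 0.29 (edgeR adjusted p = 0.100), and without WT replicate 16 it was 0.22 (edgeR adjusted p = 0.0119, in a range of 0.0119 to 0.262 over the alternatives). The log2 ratio of Phlda3 to Perp counts was -2.15 ± 0.046 in KO and -2.17 ± 0.16 in WT (SD, n = 4 each, exact permutation p = 0.829, adjusted p = 0.829).

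Trp53inp1 (NCBI Gene ID 60599, chromosome 4, 11156441 to 11174379), a p53-induced protein of cell death and autophagy, had 268.6, 269.2, 268.6 and 269.1 CPM in KO, against 262, 225, 282 and 243 CPM in WT. The WT libraries lay on both sides of the KO libraries. The KO spread, a coefficient of variation of 0.109%, was smaller than the counting error of counts of this size, which is 0.898%, so that SD understates the error of a KO library. The KO spread was also below the counting error for Perp (0.690% against 0.753%), Sesn1 (3.14% against 3.87%) and Trp53 (1.65% against 1.77%). The log2 fold change of Trp53inp1 was 0.088 (-0.034 to 0.21, edgeR adjusted p = 0.343), and without WT replicate 15 it was 0.14 (edgeR adjusted p = 0.0466, in a range of 0.0466 to 0.682 over the alternatives).

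Plk2 (NCBI Gene ID 20620, chromosome 13, 110395044 to 110400844), a polo-like kinase of the centriole cycle and a p53 target, was the 1 gene of the 10 that fell. It had 95.7, 100.8, 88.0 and 93.9 CPM in KO, against 116, 123, 104 and 109 CPM in WT, and the highest KO library stayed below the lowest WT library. The fitted change was -0.26 ± 0.058 on the log2 scale (SE, edgeR adjusted p = 0.00845), or -16.3%, and it was called in all 8 fits that left out 1 library. The related Plk3, another p53 target, also fell, to 26.1 ± 2.91 CPM in KO against 33.4 ± 3.00 CPM in WT (SD, n = 4, edgeR adjusted p = 0.0103). It was named after its values were seen.

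**Figure D2:**
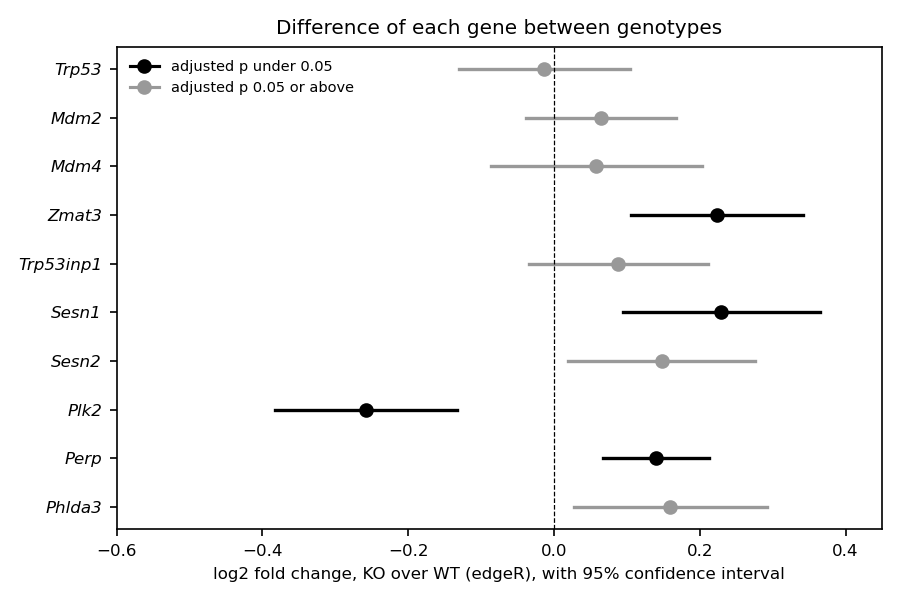
Fitted log2 fold change of KO over WT for each of the 10 genes (points) with its 95% confidence interval (lines), black where the edgeR adjusted p was under 0.05 and grey where it was not. Plk2 lies at -0.26, Perp, Zmat3 and Sesn1 between 0.14 and 0.23, and the intervals of Trp53, Mdm2, Mdm4 and Trp53inp1 include 0.

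Levels of different genes were set side by side as the authors' TPM (transcript levels scaled for length and depth). Perp was highest, at 402 ± 4.12 TPM in KO and 357 ± 11.8 TPM in WT (SD, n = 4 each). Phlda3 followed at 117 ± 4.52 TPM in KO and 103 ± 8.98 TPM in WT, and Trp53inp1 at 99.3 ± 1.19 TPM in KO and 91.5 ± 10.3 TPM in WT. The middle of the order held Plk2, Trp53, Zmat3 and Mdm2, with KO means of 67.5, 72.6, 57.9 and 52.2 TPM and WT means of 78.8, 69.7, 48.5 and 48.9 TPM. Mdm4 (23.3 TPM in KO, 21.8 TPM in WT), Sesn2 (22.2 TPM in KO, 19.6 TPM in WT) and Sesn1 (10.6 TPM in KO, 8.78 TPM in WT) were lowest. Neighbours whose libraries overlapped in both genotypes were Plk2 with Trp53, Zmat3 with Mdm2, and Mdm4 with Sesn2, so their order is not beyond the spread. Phlda3 with Trp53inp1 and Trp53inp1 with Plk2 overlapped in WT but not in KO, so their order is beyond the spread in KO only. Mdm2 and Mdm4, which had nearly equal counts, differed in TPM, with Mdm2 higher and no overlap in either genotype. In TPM the groups did not overlap for Sesn2 either, at 20.9 to 23.3 TPM in KO and 18.2 to 20.8 TPM in WT. TPM and CPM did not order the libraries alike. For Trp53, KO replicate 7 was the highest KO library in CPM (71.1) and the lowest in TPM (69.8). The mean of Trp53 was higher in KO in TPM (72.6 against 69.7 TPM) and slightly lower in KO in CPM (69.5 against 70.1 CPM). The reason was not tested.

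**Figure D3:**
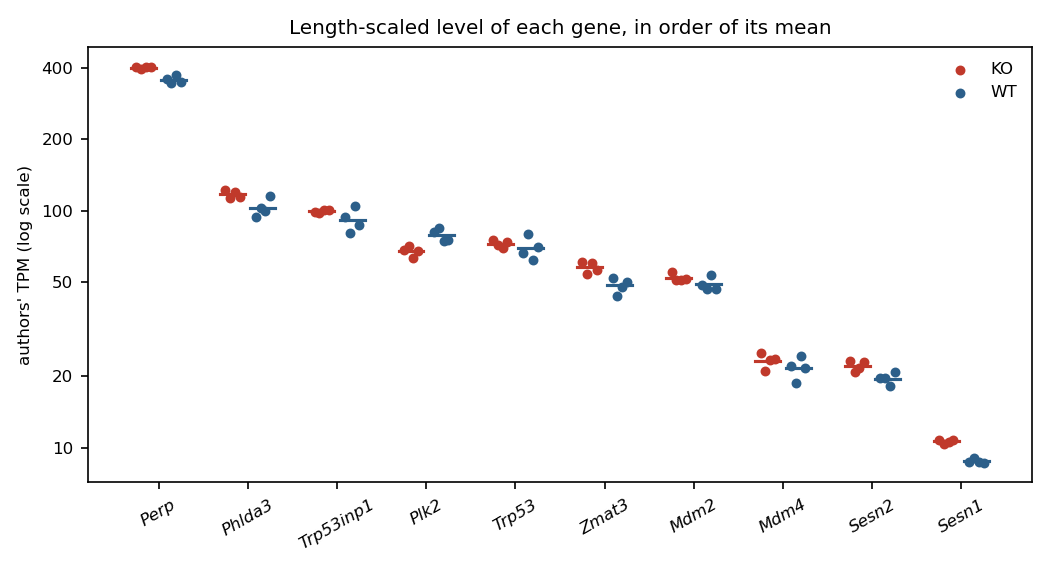
The authors' TPM of each gene on a log axis, per library, with KO (red) left of WT (blue), a line at each mean and the genes in order of their mean over all libraries. Perp stands alone at the top with every library at 347 TPM or more, Sesn1 at the bottom with every library at 10.8 TPM or less, and the pairs Zmat3 with Mdm2 and Mdm4 with Sesn2 overlap.

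The 10 genes varied among themselves in how the WT libraries spread. The coefficient of variation of CPM was larger in WT than in KO for all 10, with a median of 3.63% in KO and 7.42% in WT. The same held for 69.4% of all genes tested, with medians of 5.71% in KO and 8.24% in WT, so nothing particular to the 10 genes is read from it. Mdm2, Mdm4 and Trp53inp1 had their highest WT value in replicate 15, at 0.10, 0.14 and 0.16 above the WT mean on the log2 scale. Trp53 and Plk2 had their lowest WT value there, at -0.12 each, and their highest in replicate 14, at 0.15 and 0.13. In replicate 14, Mdm4 and Trp53inp1 were lowest, at -0.19 and -0.16. Perp too had its highest WT value in replicate 15 and its lowest in replicate 14, at 0.026 and -0.023. Sesn1 had its highest in replicate 14, at 0.10. Sesn2, Zmat3 and Phlda3 did not have both extremes in replicates 14 and 15. Sesn2 was also lowest in replicate 15, at -0.14, but highest in replicate 16, at 0.10, and Zmat3 was below the mean in both replicates 14 and 15, at -0.12 and -0.051. Phlda3 was lowest in replicate 13 (-0.13) and highest in replicate 16 (0.18). Among the KO libraries, replicate 5 was the highest for Mdm2, Mdm4, Zmat3, Sesn1, Sesn2, Perp and Phlda3.

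**Figure D4:**
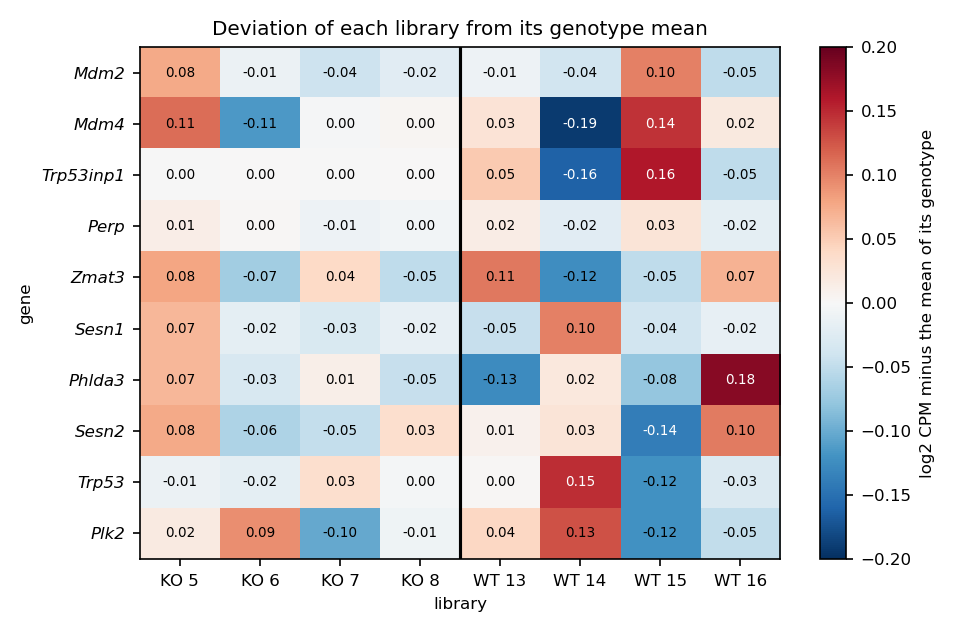
Each library's log2 CPM minus the mean of its own genotype, for the 4 KO (left) and 4 WT (right) libraries, in red above and blue below the mean, with the value in each cell. WT replicates 14 and 15 deviate in opposite directions for every gene but Zmat3. They stand furthest apart for Mdm4, Trp53inp1, Trp53 and Plk2, with deviations of up to 0.19 in size, and the KO libraries deviate by at most 0.11.

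Profiles over the 8 libraries were compared by the root mean square difference of log2 CPM after each gene's own mean was subtracted, among 10019 other genes with a mean of at least 5 CPM. Nearest to Trp53 were Polr2f, an RNA polymerase subunit gene (0.019), Prmt5, an arginine methyltransferase gene (0.029), and R3hdm4 (0.031), where the median over all candidates was 0.12. Nearest to Mdm2 were Acadm, of fatty acid oxidation (0.018), Mcl1, an inhibitor of apoptosis (0.025), and Ppp2r5a, a phosphatase subunit gene (0.026), with a median of 0.11. Like Trp53 and Mdm2 themselves, none of these 6 genes passed the test between genotypes. The distance includes the difference between genotypes, so this follows from how the 6 genes were chosen and is no separate result. Among the 10 genes, the nearest pair was Mdm2 and Perp (0.055) and the farthest Zmat3 and Plk2 (0.27).

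Of 25 other genes that control p53, 24 were tested, and 2 rose and 5 fell in KO. That is 8.33% higher and 20.8% lower, beside 7.63% and 8.26% of all genes, and the median log2 fold change was -0.044. The 5 lower became 2 without KO replicate 8 and 3 without KO replicate 5 or WT replicate 13. Over all genes, the 1234 lower became 724, 842 and 808 without KO replicate 8, KO replicate 5 and WT replicate 13. The largest rise was in Cdkn2a, whose ARF product binds MDM2 and whose other product inhibits cyclin-dependent kinases. It averaged 3.11 ± 0.708 CPM in KO, against 1.26 ± 0.285 CPM in WT (SD, n = 4 each), with a log2 fold change of 1.30 ± 0.20 (SE) and an edgeR adjusted p = 7.2e-04, and its libraries did not overlap between genotypes. The table counts the gene as a whole and does not separate the transcripts of its products. Hipk2, a kinase that phosphorylates p53, rose to 62.6 ± 7.37 CPM in KO, against 45.4 ± 4.69 CPM in WT (edgeR adjusted p = 0.00278).

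The control genes that fell include 2 ribosomal protein genes whose products bind MDM2. Rpl5 stood at 1358 ± 53.5 CPM in KO, against 1604 ± 36.1 CPM in WT (SD, n = 4 each), a log2 fold change of -0.24 (edgeR adjusted p = 6.9e-04). Rpl11 stood at 685 ± 21.5 CPM in KO, against 804 ± 29.7 CPM in WT, a log2 fold change of -0.23 (edgeR adjusted p = 0.00128). Both have pseudogene copies, so the split of their reads is uncertain. Kat5, an acetyltransferase of p53, and Rchy1, a ubiquitin ligase of p53, fell by 0.18 and 0.17 on the log2 scale (edgeR adjusted p = 0.0112 and 0.0235). The Kat5 call ended without KO replicate 8 (edgeR adjusted p = 0.0524, range over the alternatives 9.6e-04 to 0.0524), and that of Rchy1 without KO replicate 5, 7 or 8 or WT replicate 13 (0.0516 to 0.0851, range 0.00434 to 0.0851). Mdc1, a DNA damage mediator named after its values were seen, fell by 0.21. The most abundant genes that did not pass were Usp7, the deubiquitinase of MDM2 and p53 (177 CPM in KO, 170.4 CPM in WT), and Cop1, another ligase of p53 (141 CPM in KO, 139 CPM in WT). The damage kinase genes Atm, Atr, Chek1, Chek2 and Prkdc did not pass either, with log2 fold changes from -0.26 (Chek1) to 0.19 (Prkdc), and were likewise named after their values were seen.

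Among 38 other genes listed as p53 targets, Sesn3 and Trp53inp2 are relatives of Sesn1 and Trp53inp1, and their control by p53 was not checked. All 38 were tested, and 10 rose and 7 fell in KO. That is 26.3% higher and 18.4% lower, beside 7.63% and 8.26% of all genes. Since the control and target lists were chosen with earlier results of these data known, such shares are no test of either list. The 10 higher became 5 without KO replicate 8 or WT replicate 13 and 6 without KO replicate 5 or 7, and the 7 lower became 4 without KO replicate 7. Calls over all genes dropped in the same fits. There the 1140 higher became 696 without KO replicate 8, 763 without WT replicate 13, 757 without KO replicate 5 and 784 without KO replicate 7. The 1234 lower over all genes became 826 without KO replicate 7. Over all 38, the median log2 fold change was 0.032. Ccng1, which encodes cyclin G1, rose to 667 ± 12.4 CPM in KO, against 554 ± 39.8 CPM in WT (SD, n = 4 each), a log2 fold change of 0.27 ± 0.047 (SE) with an edgeR adjusted p = 0.00187. Abhd4, a lipid hydrolase gene, rose by 0.27, Trp53inp2, of autophagy, by 0.24 and Ei24 by 0.16 on the log2 scale. The other genes that rose, named after their values were seen, were Ddit4l, Ephx1, Ercc5, Slc19a2, Aen and Sulf2, at log2 fold changes of 0.34, 0.23, 0.19, 0.18, 0.15 and 0.15.

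The 7 that fell were Pmaip1, Gadd45a, Gdf15, Bbc3, Ckap2, Plk3 and Sesn3. Pmaip1, which encodes the death factor NOXA, stood at 151 ± 11.3 CPM in KO, against 198 ± 13.8 CPM in WT (SD, n = 4 each). Its log2 fold change was -0.39 with an SE of 0.060 (edgeR adjusted p = 7.7e-04). Gadd45a, a growth arrest and damage response gene, stood at 26.4 ± 2.26 CPM in KO, against 32.6 ± 0.994 CPM in WT (-0.31 ± 0.061, edgeR adjusted p = 0.00412). Besides Sesn3 and Plk3, the others that fell, named after their values were seen, were the stress cytokine gene Gdf15 (-0.34), Bbc3, which encodes the death factor PUMA (-0.30), and Ckap2 (-0.18). Cdkn1a, which encodes the cell cycle inhibitor p21 and is the best known arrest target of p53, had 528 ± 8.95 CPM in KO, against 496 ± 25.7 CPM in WT. Its log2 fold change was 0.089 with an interval of 0.00053 to 0.18, and it did not pass (edgeR adjusted p = 0.172), though it did without WT replicate 16 (0.12, edgeR adjusted p = 0.0445, range over the alternatives 0.0445 to 0.342). Ddit4, an inhibitor of mTORC1, had 465 ± 9.70 CPM in KO, against 497 ± 37.1 CPM in WT (edgeR adjusted p = 0.227).

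**Figure D5:**
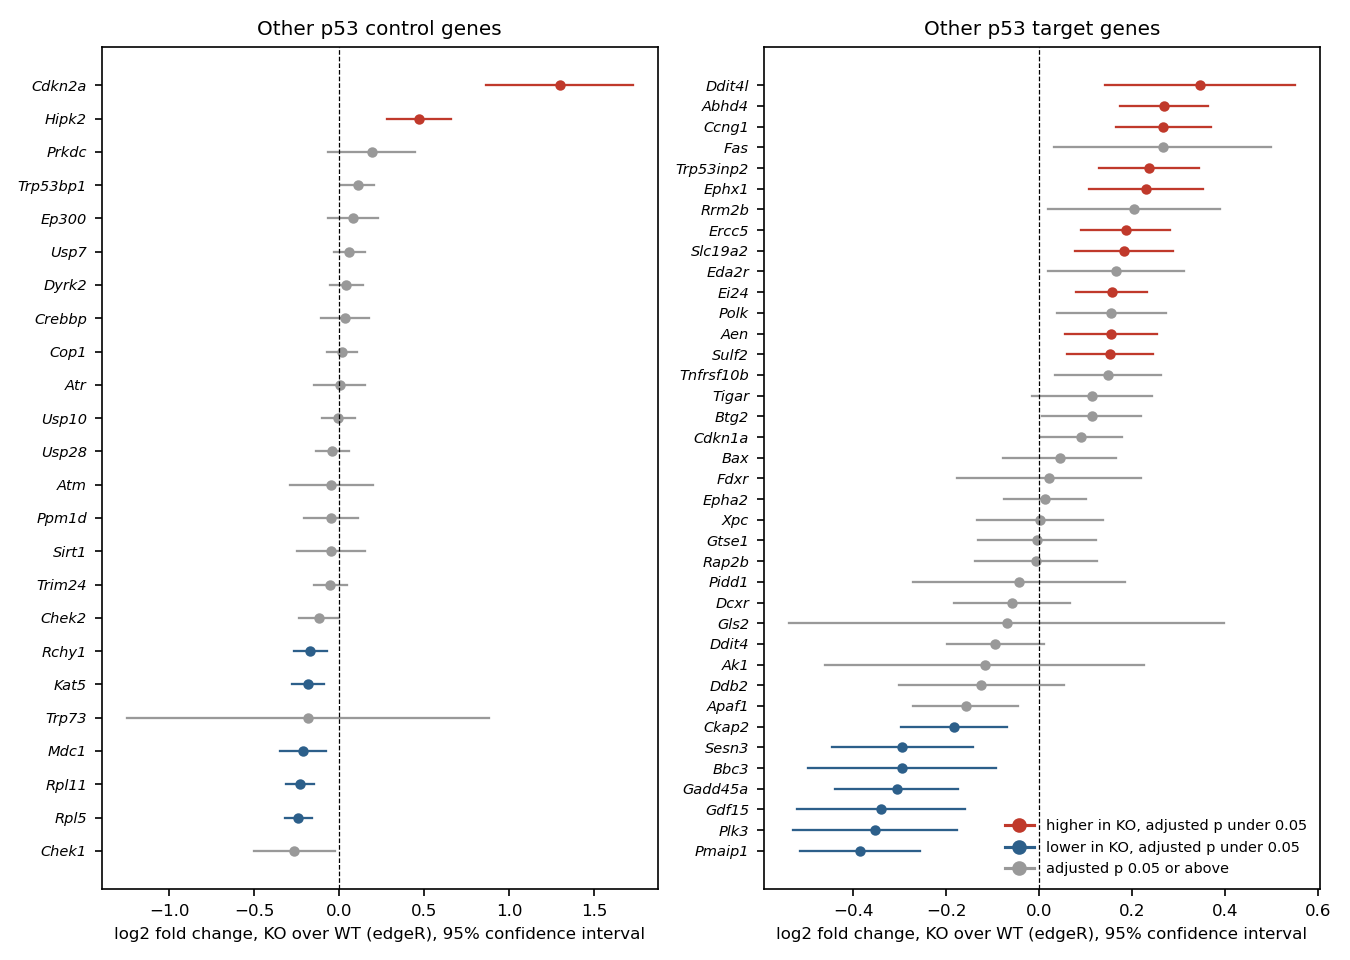
Fitted log2 fold change of KO over WT (points) with 95% confidence intervals (lines) for the 24 tested p53 control genes (left) and 38 other p53 target genes (right), red where higher and blue where lower in KO at an edgeR adjusted p under 0.05, grey otherwise. The axes differ in range because Cdkn2a lies at 1.30, while the target genes lie between -0.39 (Pmaip1) and 0.34 (Ddit4l).

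Genes of proliferation and of surface colonocytes, the differentiated absorptive cells of the colon, moved with genotype over the same libraries. Of 12 proliferation genes 10 fell and none rose, with a summed 1289 to 1370 CPM in KO and 1546 to 1745 CPM in WT. That is 83.3% lower, beside 8.26% of all genes tested. Of 10 surface colonocyte genes 8 rose and none fell, with a summed 6982 to 7271 CPM in KO and 4745 to 5294 CPM in WT. Those that rose are 80.0%, beside 7.63% of all genes tested. Both marker lists were likewise chosen with earlier results of these data known. None of these marker genes had 0 counts in all libraries. The part of either shift in the differences of Zmat3, Sesn1, Perp, Plk2 and the other p53 genes was not tested.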

How the data were processed

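Values come from 1 deposited table with 8 libraries, 4 per genotype, grouped by the genotype label. The authors deposited raw counts per gene, FPKM (not used for results) and TPM, per the file headers. The build GRCm38 and the tools HTSeq, TopHat, TopHat2 and Bowtie2 are listed without roles, per the submitters' processing notes; the strand setting of the counting is not given in the sources. GENCODE exons of the 10 genes overlap no other gene's. Stranded libraries were made from RNA with an integrity number above 7.0, per the labels' protocols. Counts of 2 were more frequent than counts of 1 (673 to 772 against 548 to 622 genes per library), so both mates of a pair may have been counted. No libraries of a genotype held identical values, and pairs differed beyond counting error (chi-square per degree of freedom 4.94 to 10.7 in KO and 11.1 to 24.9 in WT).

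Genes passing filterByExpr were TMM-scaled and tested together with edgeR 4.0.16 in R 4.3.3, after a check on simulated counts. CPM is TMM-scaled, and the SE is the log2 fold change divided by the root of F. Intervals are 95% and rest on the fitted variation among libraries, while floors (3 counts) cover counting error only. Ratios within a library used counts plus 0.5 and exact permutation tests. Alternatives were DESeq2 1.42.0, limma 3.58.1 (voom), other scalings, filters and thresholds, and leaving out each library. Python 3.11.15, pandas 2.3.3, numpy 2.4.6, scipy 1.17.1 and matplotlib 3.10.9 were used. The named genes are the 10 genes, up to 6 called genes with the smallest adjusted p and the 2 most abundant uncalled genes of each other list, and the 3 nearest profiles to Trp53 and Mdm2. Members and lists were chosen with earlier results of these data known. Promoter sequences are from RefSeq, GRCm38.p6.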

Additional observations from a re-analysis of the deposited data

Results flagged for a closer look

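In 4 of 52 sets of 4 libraries checked (the 10 genes and 16 other p53 genes, in each genotype), a single library stood apart from the other 3, and chance flags about 1 in 20 such sets. Sesn1 had 15.1 CPM in KO replicate 5, above the 14.2 to 14.3 CPM of the other KO libraries. Rchy1 had 57.1 CPM in KO replicate 6, above 51.8 to 52.2 CPM. Hipk2 had 38.4 CPM in WT replicate 14, below 47.0 to 48.4 CPM. Kat5 had 40.9 CPM in WT replicate 14, above 40.3 to 40.4 CPM, a gap that is small beside the difference between genotypes.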

How the results depend on the processing

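The calls of Zmat3, Sesn1, Perp and Plk2 were shared by all 7 other scalings, tests and filters, which called no further member. At an adjusted p of 0.01, 0 members were higher (Zmat3 0.22, Sesn1 0.23 and Perp 0.14 on the log2 scale did not pass) and Plk2 stayed lower. That threshold left 562 genes higher and 597 lower of all tested, 2 control genes lower, and 4 target genes higher and 2 lower.

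Leaving out each library in turn gave 1 to 4 members higher and 1 lower, 696 to 1386 of all genes higher and 724 to 1404 lower, 2 to 5 control genes lower, and 5 to 12 target genes higher and 4 to 7 lower. Counts over all genes moved by over 1.5 times without KO replicate 8 (696 higher, 724 lower), KO replicate 5 (757 higher) and WT replicate 13 (808 lower). Without KO replicate 5, 1 member was higher, Perp. The log2 fold change then ran from 0.19 to 0.26 for Zmat3, 0.21 to 0.27 for Sesn1, 0.038 to 0.14 for Trp53inp1 and 0.12 to 0.22 for Phlda3. It ran from -0.053 to 0.041 for Trp53 and from -0.0013 to 0.11 for Mdm4, each changing sign without WT replicate 14, as did Cop1 (-0.0049 to 0.040). The difference in log2 ratio ran from 0.013 to 0.15 for Mdm2 to Trp53, from -0.12 to -0.043 for Sesn2 to Sesn1, from -0.030 to 0.056 for Mdm2 to Mdm4 and from -0.025 to 0.090 for Phlda3 to Perp, and with TPM it was -0.0040 for Mdm2 to Mdm4. The causes were not tested. With 3 against 4 libraries the smallest exact p is 0.0571.

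No paired analysis was possible because the genotypes share no replicate number. Trp63, with at most 6 counts in any library, and Reg3a, with 0 counts in all 8, had too few counts to be tested.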
